A study of Mus musculus with 6 samples.

Results

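MiR-296 and miR-298 are microRNAs from a pair of neighbouring genes beside the imprinted Gnas locus of the mouse, and their levels are described here in 2 classes of cortical neuron. An assay was taken when its name, without species prefix and part number, was miR-296 or miR-298, alone or with an arm ending, which gave 3 of the 584 microRNA assays on the cards: miR-296-5p, miR-296-3p and miR-298. All 3 are mouse-named assays on the first card, card A, with 1 well each. MicroRNA from the cell bodies of purified projection neurons of mice at postnatal day 1 was measured in 3 samples of callosal projection neurons (CPN), which the labels call controls, and 3 samples of subcerebral projection neurons (SCPN), which they call test samples. Callosal neurons connect the cortical hemispheres, and subcerebral neurons project below the cerebrum, as far as the spinal cord. No strain, sex, genotype or treatment is named in the labels used here, nor how the neurons were purified or whether animals were pooled. Nothing in the labels states that replicates are separate animals or litters, so the p-values below cover the spread of these samples only, and that spread may be technical.

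Imprinted genes are read from the allele of 1 parent. In the mouse, miR-296 and miR-298 are known to be expressed from the paternal allele, in the antisense direction to Nesp, as part of the Gnas domain, whose main product is the alpha subunit of the stimulatory G protein. MicroRNAs of another imprinted domain, 12qF1 with Dlk1 and Dio3, are in contrast expressed from the maternal allele. MiR-296 has been studied in differentiating mouse embryonic stem cells, where it acts on Nanog, and in human endothelial cells during vessel growth, and miR-298 is known for acting on mouse Bace1, the beta-secretase of the amyloid pathway.

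The hairpins are shown first because both assays of miR-296 read arms of 1 hairpin and because the hairpins stand so close together. They are written 5′ to 3′ from RefSeq (GRCm38.p6), with the annotated mature arms in capitals, and both genes of the pair matched by name. Mir296 lies at chr2:174267047-174267125 and Mir298 at chr2:174267504-174267585, both on the minus strand, with 378 bases between them.
Mir296: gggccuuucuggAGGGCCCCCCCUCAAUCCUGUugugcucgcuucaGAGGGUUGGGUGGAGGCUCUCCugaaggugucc
Mir298: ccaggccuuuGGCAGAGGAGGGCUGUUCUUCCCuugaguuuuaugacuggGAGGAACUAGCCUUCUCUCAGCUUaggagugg
In that annotation neither hairpin overlaps Gnas or Gnasas1, and overlap with other longer genes was not looked up. The nearest part of Gnasas1, the antisense RNA also called Nespas, begins 13.65 kb from Mir298, and the annotated start of Gnas lies 16.73 kb away.

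The mature sequences show what each assay name refers to. Capitals mark the seed, bases 2 to 8, which pairs with target messages.
miR-296-5p: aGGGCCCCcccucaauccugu
miR-296-3p: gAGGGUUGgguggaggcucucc
miR-298-5p: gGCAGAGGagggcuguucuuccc
miR-298-3p: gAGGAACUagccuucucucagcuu
The card's name for miR-298 gives no arm, and the arm its assay reads was not settled from the files. The 4 seeds differ, and none is shared with another of the 1738 mature mouse microRNAs in the table. The neighbouring hairpins thus do not form a seed family. Arms rich in G and C are 3 of the 4, with 66.7% in miR-296-5p, 68.2% in miR-296-3p and 65.2% in miR-298-5p, against a median of 52.2% over all mature sequences and 50.0% in miR-298-3p. MiR-296-5p holds a run of 7 C, and runs of 1 base as long are found in 0.403% of the mature sequences.

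Every well holds its own quantitative PCR. The readout is the threshold cycle (Ct), the cycle number at which the signal passes a threshold, and it comes earlier, and is lower, with more template. MiR-296-5p was the abundant member. Its Ct was 19.5, 24.8 and 23.5 in CPN replicates 1, 2 and 3, and 20.2, 26.3 and 26.7 in SCPN replicates 1, 2 and 3. The replicates numbered 1 of both groups were the earliest, as they were for the card as a whole: the mean Ct of the 159 card A microRNA assays with a Ct under 35 in all 6 samples was 22.6, 28.1 and 24.7 in the CPN replicates in order and 21.8, 27.1 and 27.2 in the SCPN replicates. Raw Ct values of miR-296-5p thus largely moved with those of the whole card, while the other members followed it less closely, as given below. Template amount, amplification and threshold setting cannot be told apart as sources of the spread of the card. The CPN mean of this card value was 25.1 ± 2.76 and the SCPN mean 25.4 ± 3.12 (SD, n = 3 per group).

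**Figure D1:**
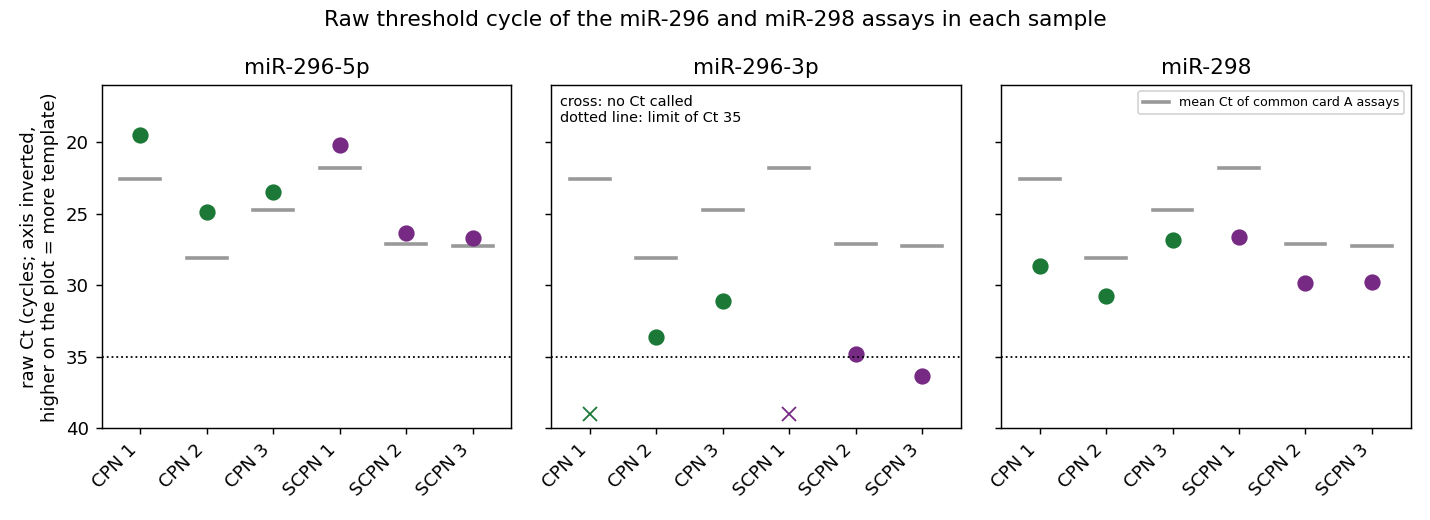
Raw Ct (cycles, axis inverted so that more template is higher) of the 3 assays in each of the 3 CPN samples (green) and 3 SCPN samples (purple), with the card's mean over 159 common assays as a grey bar and the Ct 35 limit dotted. MiR-296-5p stands above the grey bar in every sample, miR-298 below it, and miR-296-3p has no Ct (cross) in both replicates numbered 1.

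To remove this, the Ct of an assay was subtracted from that mean in each sample. The result, called the level below, is in cycles, or log2 units at full PCR efficiency, and a higher level means more template relative to the commonly detected assays, whose mean is 0. On this scale miR-296-5p stood at 3.10, 3.23 and 1.23 in CPN replicates 1, 2 and 3, and at 1.56, 0.82 and 0.56 in SCPN. CPN replicates 1 and 2 lay above all SCPN samples, while CPN replicate 3 lay within the SCPN range, below SCPN replicate 1, so the groups overlapped. CPN had a mean level of 2.52 ± 1.12 and SCPN of 0.98 ± 0.52 (SD, n = 3 per group). Ranked by mean level among the 159 assays, miR-296-5p was number 40 in CPN and number 69 in SCPN, although levels of different assays also depend on their PCR efficiencies, for which no values were used here. In these bulk samples, fewer cells with a microRNA and less of it per cell cannot be told apart.

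The comparison of SCPN with CPN asks which microRNAs differ between the neuron classes. For miR-296-5p the difference in level, SCPN minus CPN, was -1.54 ± 0.73 (SE), with a 95% interval from -3.24 to 0.16, or 2.91-fold more in CPN at full efficiency. In limma, fitted over the 306 assays with a Ct under 35 in at least 3 samples, its unadjusted p was 0.070 and its adjusted p 0.61. It stood at place 35 among the 306 by p, and at place 15 from the lowest difference. In each pair of samples with the same number miR-296-5p was lower in SCPN, by 1.54, 2.41 and 0.67 cycles for numbers 1, 2 and 3, and 23.5% of the tested assays were lower in all 3 pairs. With the replicate number as a block, a pairing that the labels do not state, limma gave an unadjusted p of 0.029 and an adjusted p of 0.24. The difference was thus not beyond the spread between samples after adjustment over the table with or without the block.

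No member was called in this comparison. At adjusted p under 0.05 limma called 0 of 306 assays (0.0%) and 0 of the 3 members. At unadjusted p under 0.05 there were 25 assays (8.17%), and 0 of the 3 members. With the replicate block the count at unadjusted p was 51 of 306, with miR-296-5p and miR-296-3p among them. For miR-296-3p that fit includes a same-numbered pair with no Ct in either sample, where both values are limits. Groups did not overlap in 46 assays (15.0%), and in 0 of the 3 members.

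MiR-298, from the neighbouring hairpin, had another course over the samples. Its Ct was 28.6, 30.8 and 26.8 in CPN replicates 1, 2 and 3, and 26.6, 29.9 and 29.8 in SCPN. As levels these were -6.05, -2.70 and -2.10 in CPN and -4.84, -2.71 and -2.53 in SCPN. The replicates numbered 1 were the lowest of their groups, and these are the samples with the earliest mean Ct of the card, while the other 4 samples spanned only -2.71 to -2.10. Whether the earlier card values have a part in this was not tested. The groups overlapped, with a CPN mean of -3.62 ± 2.13 and an SCPN mean of -3.36 ± 1.28 (SD, n = 3 per group). The SD of miR-298 in CPN was the number 7 of the 159 commonly detected card A assays, whose median SD was 0.832, and in SCPN it was number 29, with a median of 0.681. MiR-296-5p ranked 48 and 100 in the same order.

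The difference of miR-298 was 0.26 ± 1.17 (SE), with a 95% interval from -2.47 to 2.99 and a limma adjusted p of 0.97. In same-numbered pairs SCPN minus CPN was 1.21, -0.01 and -0.43 for numbers 1, 2 and 3, so the pair numbered 1 alone gave the positive mean. Its sign turned without CPN replicate 1 (-0.96), without SCPN replicate 2 (-0.055), without SCPN replicate 3 (-0.16) and without both replicates numbered 1 (-0.22), a choice added after seeing the data. Without both replicates numbered 1 the difference of miR-296-5p was -1.54, as with all samples.

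**Figure D2:**
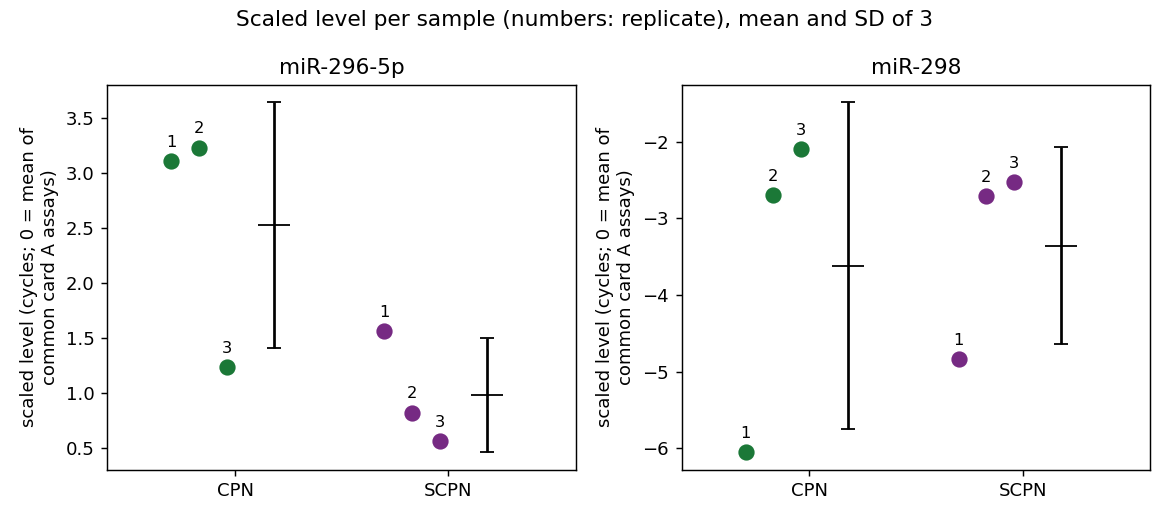
Level (cycles, 0 being the mean of the commonly detected card A assays) of miR-296-5p and miR-298 in each sample, numbered by replicate, with group mean and SD (n = 3). CPN replicate 3 lies within the SCPN range of miR-296-5p, and replicate 1 is the lowest of each group for miR-298.

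MiR-296-3p, the opposite arm of the miR-296 hairpin, was close to the detection limit. It had no Ct in CPN replicate 1, a Ct of 33.6 in CPN replicate 2 and of 31.1 in CPN replicate 3, no Ct in SCPN replicate 1, 34.8 in SCPN replicate 2 and 36.3 in SCPN replicate 3. With a limit of Ct 35 it was detected in 2 CPN samples and 1 SCPN sample. Where both arms had a Ct, miR-296-3p came 8.75 and 7.59 cycles after miR-296-5p in CPN replicates 2 and 3, and 8.49 and 9.68 cycles after it in SCPN replicates 2 and 3. In CPN replicate 1 and SCPN replicate 1, with miR-296-5p at its earliest Ct, the limit itself lay 15.5 and 14.8 cycles after miR-296-5p. An assay keeping the gap of the other 4 samples would have had a Ct well before the limit there. Of the 584 assays, miR-296-3p alone (1 assay) had no Ct in both replicates numbered 1 and a Ct in all 4 others, and the reverse pattern was found in 5. The pattern was taken from miR-296-3p itself after its values were seen, so this is a description. It counts the Ct of 36.3 in SCPN replicate 3, which is past the limit.

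Because 3 of its 6 values are limits, the fitted difference of miR-296-3p, -1.46 ± 2.14 (SE, limma adjusted p 0.90), depends on the limit and was 0.37 without SCPN replicate 1. With the replicate block its unadjusted p was 0.025 and its adjusted p 0.24, but the pair numbered 1 then compares 1 limit with another. Its size therefore carries no measured ratio between the groups. Both CPN samples with a Ct had it earlier than both SCPN samples with one, on the raw scale and with the scaling used here. In the Ct normalised by the authors this order did not hold. There CPN replicates 2 and 3 stood at 16.02 and 14.19, and SCPN replicates 2 and 3 at 15.66 and 16.90.

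Within a sample, 2 assays of 1 card can be compared with no scaling at all. MiR-296-5p exceeded miR-298 by 9.16, 5.93 and 3.33 cycles in CPN replicates 1, 2 and 3, and by 6.40, 3.53 and 3.09 cycles in SCPN. MiR-296-5p was ahead in all 6 samples, and the ranges of the groups overlapped. CPN had a mean gap of 6.14 ± 2.92 and SCPN of 4.34 ± 1.80 (SD, n = 3 per group), a difference of -1.80 with an exact two-sided permutation p of 0.6, where 0.1 is the smallest possible, over the 1 pair of members measured in every sample. The gap was smaller in SCPN in all 3 same-numbered pairs, and the exact paired p was 0.25, the smallest that 3 pairs can give. This rests on the pairing, as CPN replicate 3, at 3.33, lay below SCPN replicate 2, at 3.53. Leaving out CPN replicate 1 left a difference of -0.29, and leaving out CPN replicate 3 or SCPN replicate 1 gave -3.20 and -2.83. The levels of miR-296-5p and miR-298 had a Pearson r of -0.51 over the 6 samples, which share their card and scaling, given as a description.

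Set beside the imprinted 12qF1 microRNAs, which an earlier analysis of these samples had found higher in SCPN, miR-296-5p had the opposite sign. The median over the 28 card A assays of 12qF1 with a Ct under 35 in all samples was used. MiR-296-5p exceeded this median by 4.98, 5.78 and 3.08 cycles in CPN replicates 1, 2 and 3, and by 1.63, 0.91 and 0.49 in SCPN, and the groups did not overlap. CPN had a mean of 4.61 ± 1.39 and SCPN of 1.01 ± 0.58 (SD, n = 3 per group). The difference of -3.60 had an exact two-sided permutation p of 0.1, the smallest possible, which became 0.2 when adjusted for the 2 members so tested. It ran from -4.37 to -2.70 when 1 sample was left out, and the exact paired p was 0.25, again the smallest possible. Separation from this median was common: of the 131 commonly detected card A assays outside 12qF1, 107 (81.7%) were lower in SCPN with no overlap, and 130 had a lower mean. The level of the 12qF1 median itself was -1.88, -2.55 and -1.84 in CPN replicates 1, 2 and 3 and -0.07, -0.08 and 0.07 in SCPN, a difference of 2.06, which makes up the larger part of the 3.60 cycles. The non-overlap is thus no result about miR-296-5p, whose difference stood at place 10 from the lowest of the 131, where the median was -2.43, and the 12qF1 rise was known from these samples before.

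Single 12qF1 members show the same contrast in plain Ct. MiR-127, which acts on its antisense partner Rtl1, came at 19.04, 25.1 and 22.3 in CPN, within 1.20 cycles of miR-296-5p in each sample, but at 17.3, 23.1 and 23.5 in SCPN, earlier than miR-296-5p by 2.88 to 3.17 cycles. MiR-434-3p, from the same maternal cluster, came at 19.1, 25.01 and 22.2 in CPN and at 16.9, 23.5 and 23.1 in SCPN. Their level differences were 1.05 ± 0.58 and 1.16 ± 0.61 (SE), with limma adjusted p of 0.77 and 0.73. MiR-296-5p and these members of the other imprinted locus thus stood near each other in CPN and apart in SCPN. This is again no result about miR-296-5p, as 81.7% of the card A assays outside 12qF1 separated from the 12qF1 median. Nearness in Ct of different assays also depends on their PCR efficiencies.

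MiR-298 stood below the 12qF1 median in every sample, by 4.17, 0.15 and 0.26 cycles in CPN replicates 1, 2 and 3 and by 4.77, 2.63 and 2.60 cycles in SCPN. CPN replicates 2 and 3 were near the median, and CPN replicate 1 lay within the SCPN range. The difference of means was -1.81, place 101 from the lowest of the 131, with an exact permutation p of 0.3 and an adjusted p of 0.3. It was -3.13 without CPN replicate 1, -0.79 without CPN replicate 2, -1.17 without CPN replicate 3 and -1.09 without SCPN replicate 1.

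**Figure D3:**
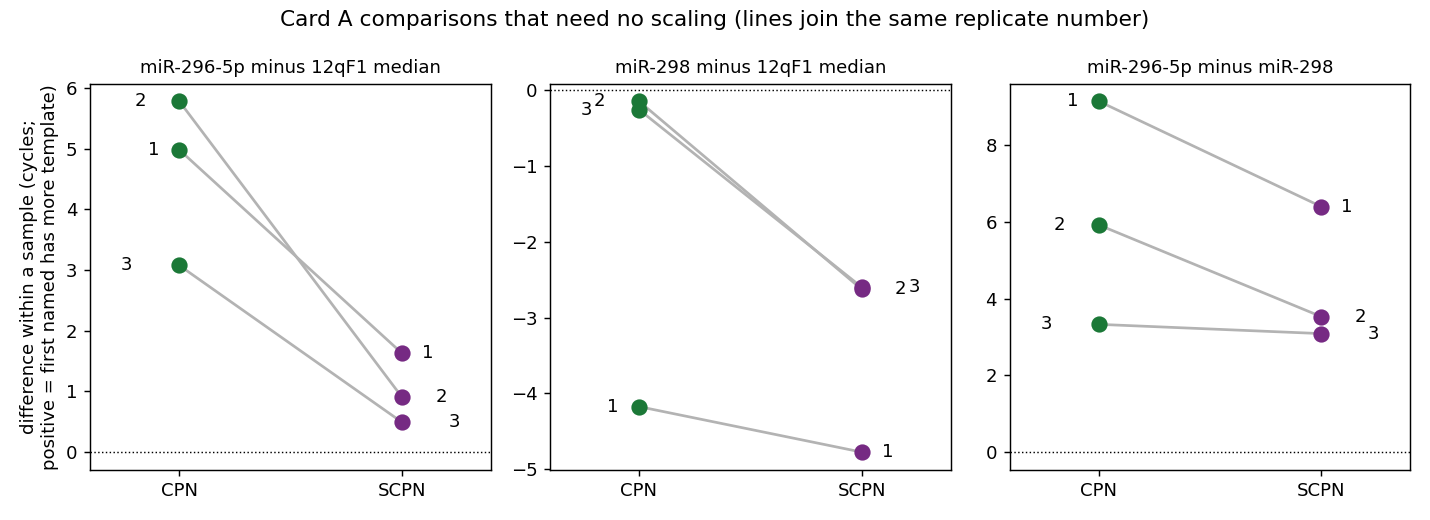
Differences between Ct values of 1 sample (cycles, positive where the first named has more template), for miR-296-5p and miR-298 against the median of 28 card A 12qF1 assays and against each other, with lines joining samples of the same replicate number. Of the 3 comparisons shown, the groups separate for miR-296-5p against 12qF1 only, at 3.08 or more in CPN and 1.63 or less in SCPN, as they do for 81.7% of the card A assays outside 12qF1.

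Other imprinted microRNA loci on the cards were set beside the pair. Over the whole table the median difference was -0.08. Of the 75 assays of 12qF1, 43 were tested, and 42 had a higher and 1 a lower mean in SCPN, with a median difference of 1.56, a range of -0.05 to 4.21 and 0 calls at adjusted p under 0.05. MiR-335-5p and miR-335-3p, from the hairpin within the paternally expressed Mest gene, differed by 0.23 ± 0.71 and -0.27 ± 0.61 (SE). MiR-184, reported as imprinted in mouse, differed by 1.61 ± 1.57 (SE), with limma adjusted p of 0.81. The Sfmbt2 group, a set of near-identical copies whose assays may not tell them apart, had 6 of 20 assays tested, 2 higher and 4 lower, with a median of -0.08. MiR-675-3p and miR-675-5p of H19 and miR-483* of Igf2 had a Ct under 35 in 0 samples. The named assays from these other loci had differences of both signs, as did the 3 members, and limma called 0 of them at the adjusted threshold.

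**Figure D4:**
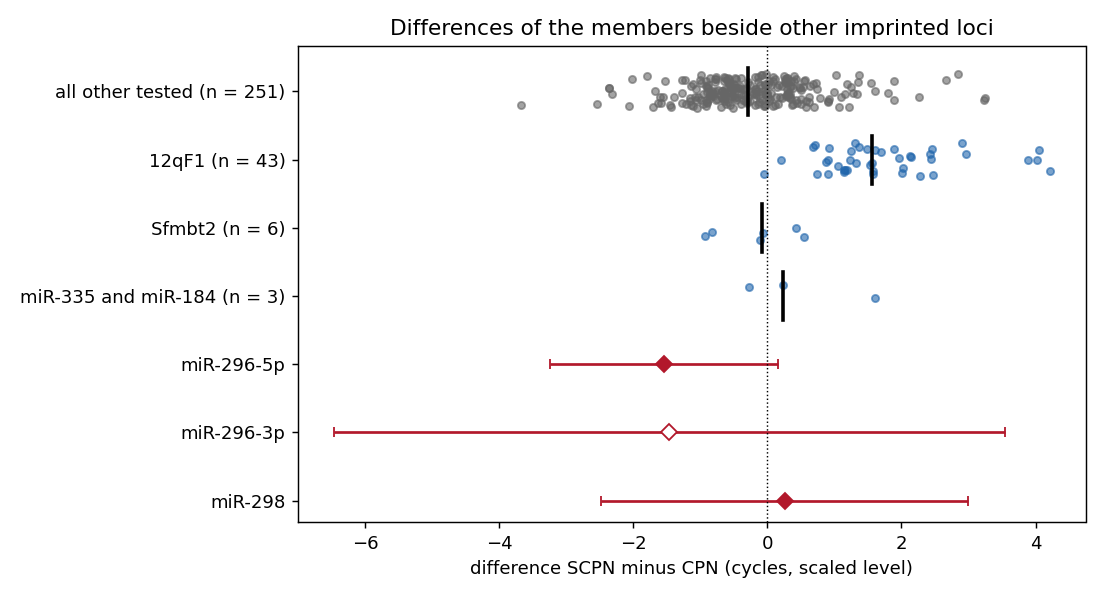
Difference in level, SCPN minus CPN (cycles), for tested assays by imprinted locus (points, median as a bar) and for the 3 members (diamonds with 95% interval from limma). MiR-296-5p lies at -1.54 where the 12qF1 median is 1.56, and the interval of each member includes 0. The open diamond marks miR-296-3p, whose value depends on the Ct limit.

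The choice of scale decided how large the difference of miR-296-5p appeared. In the authors' deposited sheet of normalised Ct, which subtracts the Ct of control small RNAs, miR-296-5p stood at 6.001, 7.27 and 6.61 in CPN replicates 1, 2 and 3 and at 6.38, 7.16 and 7.23 in SCPN, so that the groups overlapped widely. The authors' deposited table gives it a ratio of 0.814, SCPN over CPN, or -0.30 as log2. The same table gives miR-298 a ratio of 2.83, and holds none for miR-296-3p. For comparison, the authors' deposited table gives miR-127 a ratio of 4.91 and miR-434-3p 5.28. Fitted with that scaling, the median of all 306 assays itself moved to 0.87, so that relative to that median miR-296-5p lay at -1.17 and miR-298 at 0.63, against -1.46 and 0.34 with the scaling used here. With the control RNAs without U6 the difference of miR-296-5p was -0.22, and -1.28 relative to a median of 1.07. Relative to the median of all assays miR-296-5p was lower in SCPN under each of the 20 alternatives. Subtracting that median takes out most of a change in scaling, so the alternatives are not separate checks. Whether the absolute amount of miR-296-5p per cell differed cannot be told from these values.

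**Figure D5:**
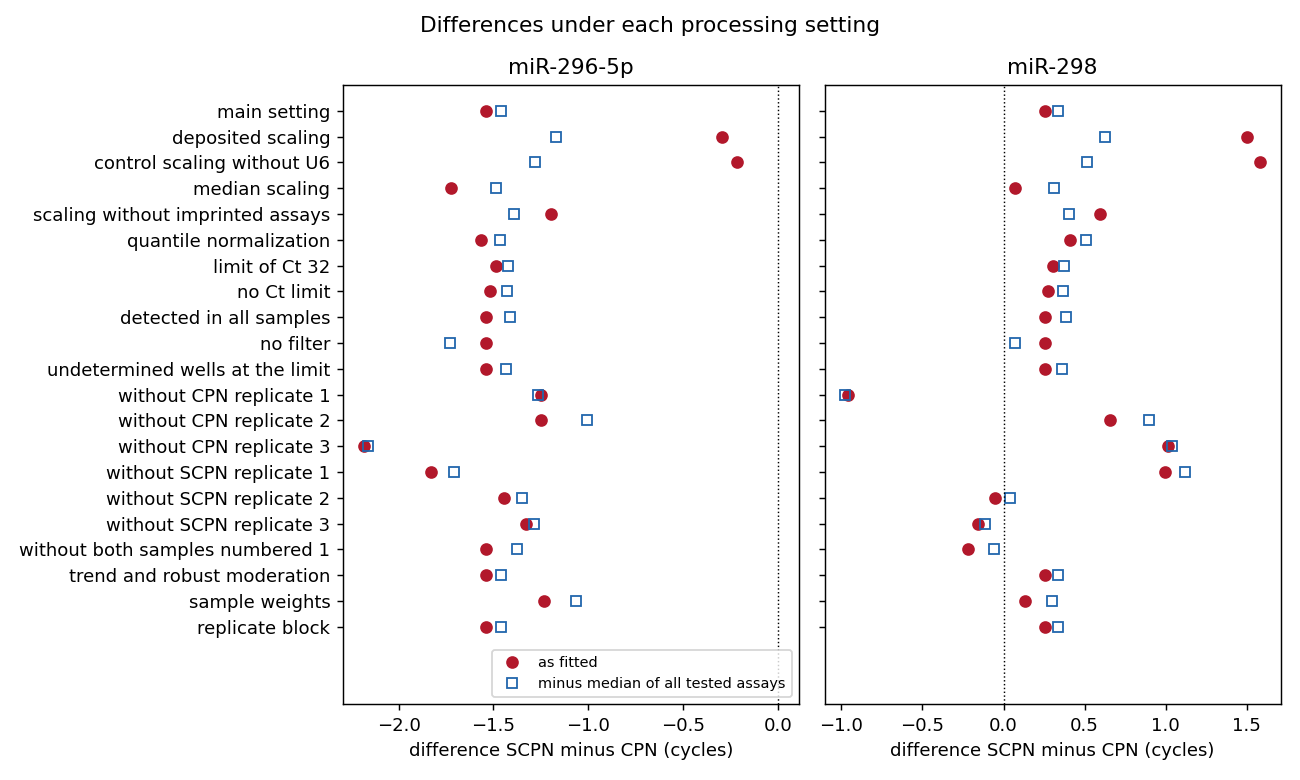
Difference SCPN minus CPN (cycles) of miR-296-5p and miR-298 under each processing setting, as fitted (red) and after subtracting the median of all tested assays (blue squares). MiR-296-5p is negative in every setting but ranges from -2.18 to -0.22, and miR-298 changes sign when single samples are left out.

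The assays whose level ran most like each member were looked up among the other 157 commonly detected card A assays, by Pearson r over the 6 samples, as a description. For miR-296-5p these were miR-125a-5p (0.97), miR-532-3p (0.96), miR-125b-5p (0.96), miR-92a (0.95) and miR-181a (0.92). Each of the 5 had a lower mean in SCPN, from -2.02 ± 0.72 for miR-92a of the miR-17/miR-92 cluster to -0.85 ± 0.71 for miR-532-3p (SE). Their choice by r over the same 6 samples favours such a shared sign. MiR-125a-5p, of the lin-4 family that promotes neuronal differentiation, had levels of 7.46, 7.72 and 5.76 in CPN and 6.43, 5.85 and 5.94 in SCPN, with CPN replicate 3 at the low end as for miR-296-5p. The limma adjusted p of the 5 ran from 0.50 to 0.81.

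For miR-298 the nearest were miR-532-5p (0.97), miR-872 (0.97), the rat-named assay for miR-345-3p (0.95), miR-369-5p of 12qF1 (0.91) and miR-344 (0.90). Each of the 5 had its lowest level of both groups in replicate 1, which the choice by r likewise favours. MiR-532-5p, for example, stood at -2.33, 0.30 and 1.22 in CPN and at -2.26, 0.33 and 0.60 in SCPN. The lists of the neighbouring hairpins shared 0 assays.

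Markers of the sampled cells were present. All 6 neuron assays found on the cards, among them miR-9 and miR-124, had a Ct under 35 in every sample. Their summed level (log2) was 8.12 to 9.77 in CPN and 8.93 to 9.72 in SCPN. MiR-9, at 7.12 to 9.25 in CPN and 7.40 to 8.75 in SCPN, made up the largest part. MiR-124 stood below the mean of the commonly detected assays in every sample, at -1.19 to -0.52 in CPN and -2.06 to -0.32 in SCPN. The 4 endothelial and vascular assays summed to 1.69 to 2.47 in CPN and 2.23 to 4.53 in SCPN, with 3 of the 4 having a higher and 1 a lower mean in SCPN, 0 of them at unadjusted p under 0.05. MiR-126-3p, the endothelial microRNA, stood at 1.45 to 2.33 in CPN and at 2.77, 4.44 and 2.14 in SCPN, highest in SCPN replicate 2. The 5 microglia and blood assays summed to 0.25 to 1.62 in CPN and -0.02 to 2.57 in SCPN, where miR-150 and miR-223 were detected in 6 samples, miR-142-3p in 4, miR-451 in 1 and miR-142-5p in 0. The 3 that were tested had higher means in SCPN, 0 of them at unadjusted p under 0.05. Both oligodendrocyte assays were near the limit, miR-338-3p detected in 4 samples with a difference of -0.55 and miR-219 in 1, and they summed to -8.75 to -5.51 in CPN and -7.76 to -6.41 in SCPN. Of the 4 embryonic stem cell assays on the cards miR-302b was detected in 3 samples, with a difference of 0.016, miR-294 and miR-295 in 1 each and miR-291a-3p in 0, and their sums were -6.49 to -4.93 in CPN and -5.86 to -5.70 in SCPN. The part of these cell types in the values of miR-296 and miR-298 was not tested.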

How the data were processed

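TaqMan rodent microRNA cards (version 2.0, miRBase 10, per the series' design text) gave 768 wells on 2 cards. The authors deposited raw Ct, Ct after subtracting control Ct, and a ratio per assay. For both members listed, the ratio was recovered as 2 to the power of the group difference (CPN minus SCPN) in mean normalised Ct. How thresholds were set, and any amplification, is not given in the sources.

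From the raw Ct, wells of an assay were averaged, and values of 35 or more and missing ones were set to 35. Per sample and card, each value was subtracted from the mean of the assays under 35 in all 6 samples (159 on card A, 65 on card B). Assays under 35 in at least 3 samples were fitted with limma 3.58.1 in R 4.3.3 (lmFit, eBayes, Benjamini-Hochberg over 306, threshold 0.05). The fit was tested on simulated independent samples, with larger differences and a smaller spread than the members had. That test does not cover differences of the size reported here. Single values used exact permutation tests. Ct data have no read depth, and 3 samples per group limit the precision.

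Same-numbered samples deviated together (r of 0.70, 0.33 and 0.28 over 224 assays). The numbers were taken to pair the samples, which the labels do not state. Deviations were taken from each group's mean of 3 samples, so the r values are not independent. The samples numbered 1 also had the earliest mean Ct of card A, at 22.6 in CPN and 21.8 in SCPN. The part of this in their r was not tested, and the r does not establish a pair. CPN replicate 2 correlated more with SCPN replicate 3 (0.41), and CPN replicate 3 nearly as much with SCPN replicate 2 (0.26). The pairing by number is thus an assumption, and the block and paired results rest on it. The members, lists, tests and the naming rule were chosen with earlier results of these data known. The rule names each member, the 5 most similar assays of its card, each imprinted assay outside 12qF1 and Sfmbt2, miR-127 and miR-434-3p.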

Additional observations from a re-analysis of the deposited data

How the results depend on the processing

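The difference of miR-296-5p stayed negative and short of the adjusted threshold in all 20 alternatives, at -2.18 to -1.25 when 1 sample was left out and -1.73 to -0.22 otherwise. Some alternatives could not move the estimates of miR-296-5p and miR-298. These were the filters, undetermined wells at the limit, trend and robust moderation, and the replicate block. For miR-296-5p the unadjusted limma p was under 0.05 with median scaling (0.031), without CPN replicate 3 (0.016), with trend and robust moderation (0.046) and with the replicate block (0.029). MiR-298 kept its sign in 16 of 20, ranged from -0.96 to 1.02 when 1 sample was left out, reached 1.499 with the deposited scaling and 1.58 with controls without U6, and was -0.22 without both samples numbered 1. MiR-296-3p ran from -3.62 to 0.37 when 1 sample was left out, and was not tested with a limit of Ct 32, with assays detected in all samples, or without CPN replicate 2, CPN replicate 3 or SCPN replicate 2, as too few values remained. The count of assays at adjusted p under 0.05 was 0 with all samples, 0 whichever sample was left out, and 1 with sample weights. At unadjusted p under 0.05 it was 25, and 14 with no filter, 42 with sample weights, 51 with the replicate block and 14 to 32 when 1 sample was left out. The replicate block changed no call at the adjusted threshold. When 1 sample was left out, miR-296-5p minus miR-298 ran from -3.20 to -0.29, miR-296-5p minus the 12qF1 median from -4.37 to -2.70, and miR-298 minus that median from -3.13 to -0.79. The causes were not tested. Each member has 1 well per sample, so no technical error of a single Ct is known.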

Other observations

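The arms of miR-532, an X-linked microRNA, fell on different sides of the pair. MiR-532-3p was among the 5 assays most like miR-296-5p and miR-532-5p the most like miR-298. MiR-532-3p stood at 3.63, 3.58 and 1.83 in CPN replicates 1, 2 and 3 and at 2.79, 1.95 and 1.74 in SCPN, highest in CPN replicates 1 and 2. MiR-532-5p was lowest in replicate 1 of both groups, at -2.33 and -2.26, and between 0.30 and 1.22 in the other samples. These values are given as a description, chosen after they were seen.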
